A study of Mus musculus with 10 samples.

Results

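The genes Lin28a, Lin28b, Hmga2, Hmga1, Igf2bp1, Igf2bp2, Igf2bp3 and Arid3a, whose products mark fetal as against mature cells, were followed in the open chromatin of the mouse epicardium and of the cells that leave it. Bulk ATAC-seq, which reads chromatin that a transposase can enter, was available as lists of peak summits. A region was assigned to a gene when its summit lay inside the gene or within 50 kb of it on mm10, and to its promoter when the summit lay within 1 kb of the transcription start. This gave 237 regions of 184764 in the whole series, with 27 at Lin28a, 17 at Lin28b, 42 at Hmga2, 25 at Hmga1, 29 at Igf2bp1, 27 at Igf2bp2, 33 at Igf2bp3 and 37 at Arid3a.

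The 10 samples gave 9 lists, 3 in each of 3 groups of flow-sorted cells from embryos carrying Rosa26tdTomato and Wt1CreERT2/+. Epicardium, the outer cell layer of the heart, was sorted as CD31-tdTomato+PDPN+ cells at E11.5 and at E17.5. Epicardium-derived cells (EPDC), which have left the layer by epithelial-to-mesenchymal transition (EMT), were sorted as CD31-tdTomato+PDPN- cells from 1 sample at E12.5 and 2 samples at E13.5, and 1 of the latter was sequenced as technical replicates that share 1 list. All groups were C57BL/6J by the labels. The methods name 2 versions of the reporter allele and females with or without it, and do not say which sample carried which. By the methods, the dams received tamoxifen at E9.5, before any stage sampled, and hearts of littermates were pooled for each sample. The label marks only cells in which Wt1 drove the recombinase when tamoxifen was given, so PDPN- cells of the Wt1 lineage stand for EPDC. Stage and cell population differ together between EPDC and either epicardium, and their parts in a difference cannot be told apart.

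LIN28A and LIN28B are RNA-binding proteins that block the maturation of let-7 microRNAs, and let-7 in turn binds the messengers of Lin28b, Hmga2, the Igf2bp genes and Arid3a. LIN28 is high in early embryos and let-7 accumulates as tissues mature, which makes the pair a developmental clock. HMGA1 and HMGA2 are chromatin proteins that bend AT-rich DNA, IGF2BP1 to IGF2BP3 bind and stabilise fetal messengers, and ARID3A is a DNA-binding protein of stem and progenitor cells. The lists hold chromatin and no RNA, so levels of these genes were not measured.

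The DNA of 7 regions with the largest differences inside Lin28b, Hmga2, Igf2bp1 and Igf2bp3 is given first, because the results turn on them, as 151 bases centred on the summit of each, on the + strand of GRCm38.p6, the sequence that mm10 names. Both Lin28b windows come from regions called at E11.5 alone. The first Hmga2 window was highest at E11.5 and in EPDC and the second in EPDC. The first Igf2bp1 window was highest at E17.5, whereas the second, and the Igf2bp3 window, were higher in epicardium of both stages than in EPDC. Capitals mark exact matches to 3 of the 7 motifs searched on both strands: TGANTCA of AP-1 (Igf2bp3), TTGGCA, a part of the NFI site (the second Lin28b window and Igf2bp3, read there or on the opposite strand as TGCCAA), and AGATAA of GATA factors (the first Hmga2 window, or TTATCT on the opposite strand).
Lin28b chr10:45459058-45459208: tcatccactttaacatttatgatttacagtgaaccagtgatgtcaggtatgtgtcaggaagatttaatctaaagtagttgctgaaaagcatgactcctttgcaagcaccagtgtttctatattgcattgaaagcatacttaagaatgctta
Lin28b chr10:45451515-45451665: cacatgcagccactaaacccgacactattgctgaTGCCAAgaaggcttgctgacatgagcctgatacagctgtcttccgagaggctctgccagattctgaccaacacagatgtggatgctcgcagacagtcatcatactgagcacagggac
Hmga2 chr10:120424197-120424347: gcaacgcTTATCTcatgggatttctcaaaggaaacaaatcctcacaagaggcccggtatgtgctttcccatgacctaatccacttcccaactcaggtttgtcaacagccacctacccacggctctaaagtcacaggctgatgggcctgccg
Hmga2 chr10:120411129-120411279: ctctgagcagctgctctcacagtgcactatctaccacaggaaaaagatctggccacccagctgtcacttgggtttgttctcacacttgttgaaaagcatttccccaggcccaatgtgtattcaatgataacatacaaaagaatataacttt
Igf2bp1 chr11:96005000-96005150: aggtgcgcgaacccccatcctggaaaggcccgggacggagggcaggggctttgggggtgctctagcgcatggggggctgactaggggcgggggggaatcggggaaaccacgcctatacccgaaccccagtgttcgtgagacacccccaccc
Igf2bp1 chr11:95988641-95988791: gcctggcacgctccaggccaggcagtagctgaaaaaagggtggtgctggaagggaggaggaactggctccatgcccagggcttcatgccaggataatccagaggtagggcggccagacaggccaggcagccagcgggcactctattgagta
Igf2bp3 chr6:49096530-49096680: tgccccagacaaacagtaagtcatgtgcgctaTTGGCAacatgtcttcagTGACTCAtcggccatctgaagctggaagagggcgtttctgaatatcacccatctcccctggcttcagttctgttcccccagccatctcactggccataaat

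The accessibility of a region in a list was expressed as a percentile, the rank from 0 to 100 of the −log10 p of its strongest summit among all summits of that list. A percentile of 0 means that the peak caller reported no summit within the region. Such a region can be below the threshold or inside a called interval whose summit lies elsewhere, so a 0 does not show it closed. The lists held between 94909 and 142743 summits. The fragment numbers recovered from the deposited scores put the genome background of the 9 lists at 2.07 to 10.9 fragments, with the largest value in EPDC E13.5 sample 2, and a summit on that background needed 2.2 to 4.35 times as many fragments to be called. Groups were compared in percentile points by limma on the 130905 regions called in at least 3 lists, 3 lists against 3, with Benjamini-Hochberg adjusted p below 0.05 as the threshold and 1 estimate of the spread from all 9 lists. A region that fewer than 3 lists outside 1 group call enters this fit only because all 3 lists of that group call it, so that it had to differ. This held for 49 of the 176 member regions in the fit. Their differences are given as descriptions, with no test, and so are counts of called regions, which include them.

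Marker promoters served as a check of the sorted cells. The promoter of Wt1, the epicardial factor that drives the label, lay between percentiles 90.4 and 97.5 in all 9 lists. That of Upk3b, a mesothelial membrane protein, stood at 98.6, 99.2 and 98.4 at E11.5, 97, 97.9 and 97.5 at E17.5 and 73.6, 22.8 and 46.1 in EPDC. The mean percentile of 8 epicardial markers was 59.3 to 71.8 at E11.5, 82.8 to 89.7 at E17.5 and 60 to 66.5 in EPDC, that of 6 mesenchymal markers 58.4 to 61.3, 65.8 to 72.8 and 77.3 to 83.3, and that of 6 cardiomyocyte markers 41.9 to 46.0, 29.6 to 39.5 and 31.4 to 36.5. The promoter of Msln, a mature mesothelial protein, was called at E17.5 alone, at 77.4, 88.7 and 78.8. That of Tnnt2, the cardiac troponin T, stood at 85.5, 89.7 and 87.9 at E11.5, 63, 59.9 and 66 at E17.5 and 78, 80.1 and 83.6 in EPDC. Of 5 tested cardiomyocyte regions 2 fell to E17.5, at Tnnt2 and Actn2, and 1 rose (30.5% and 11.2% of all regions). The latter, 0.814 kb past the start of Myh7, stood at 26.2, 0 and 14.7 at E11.5, 31.6, 44.8 and 59.8 at E17.5 and 0 throughout in EPDC. Of 6 endothelial markers, Pecam1, Cdh5, Tie1 and Emcn had no promoter region in any list, while the strongest regions of Kdr and Tek lay between percentiles 88.1 and 93.2 and between 78.9 and 85.8 in all 9. Kdr was 2.88 ± 0.87 points (SE, adjusted p = 0.028) higher in EPDC than at E11.5 in limma. For the strongest region of Tek this difference was −3.30 ± 1.66 points (SE, adjusted p = 0.15). Of 6 blood markers, Ptprc, Spi1, Gata1 and Csf1r had no region. Hbb-bs stood at 27.9, 58.2 and 31.4 at E17.5 and at 0 in the other lists in its strongest region. Lyz2 stood at 0, 17.9 and 19.2 at E11.5, 0, 1 and 0 at E17.5 and 31.1, 53.5 and 64.9 in EPDC, with EPDC 37.4 ± 8.72 points (SE, adjusted p = 0.0085) above E11.5 in limma. In bulk samples, fewer cells with an open region and a less open region per cell cannot be told apart, and the part of cell composition in the differences given here was not tested.

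Across the 8 loci, the shares of regions that fell were close to those of the genome, and the other shares are given with their backgrounds, untested. Of the 237 regions, 176 were called in at least 3 lists and 64 in all 9. Between E11.5 and E17.5 epicardium, 17 regions rose and 51 fell, 9.66% and 29.0% of the 176, where 11.2% and 30.5% of all regions did. EPDC had 11 regions higher and 51 lower than E11.5 epicardium, 6.25% and 29.0% against 12.7% and 28.0% of all regions. Against E17.5 epicardium EPDC had 36 higher and 35 lower, 20.5% and 19.9% against 24.3% and 20% of all regions. The median difference of the member regions was −5.73, −6.83 and 0 points, and that of all regions −5.51, −4.70 and 0.28 points. The contrasts share lists with each other, so their counts are not independent.

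The balance of rises and falls changed when every list was given the same number of summits. With each list cut to its 94909 strongest summits, 29 of 141 member regions rose and 25 fell from E11.5 to E17.5, with 19.4% and 23.1% of all regions. EPDC then had 16 higher and 31 lower than E11.5 epicardium, with 19.7% and 22.9% of all regions. Against E17.5 epicardium EPDC had 26 higher and 39 lower, with 27.8% and 26.3% of all regions. The number of regions higher in EPDC than at E11.5 was also the one that rested most on 1 list, as it went from 11 to 18 without the E12.5 sample.

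The counts were unequal across the loci, a difference that was not tested. Of all regions, 11.2% rose and 30.5% fell from E11.5 to E17.5. At Lin28b, 10 of 13 tested regions fell from E11.5 to E17.5, none rose, and the median difference was −34.7 points. At least 6 of the 13 entered the fit only through the E11.5 lists, as no other list called them, and had to fall. Hmga2 followed with 13 of 28 lower and 1 higher. At the other genes between 3 and 7 regions fell and 1 to 5 rose, at Lin28a 6 and 2 of 19, at Hmga1 3 and 2 of 18, at Igf2bp1 3 and 4 of 21, at Igf2bp2 3 and 1 of 16, at Igf2bp3 7 and 2 of 31, and at Arid3a 6 and 5 of 30. Some of these small counts rested on 1 list. The falls at Lin28a became 3 without E11.5 replicate 2 or E17.5 replicate 3, those at Hmga1 became 5 without the E12.5 sample or EPDC E13.5 sample 2, and those at Igf2bp2 became 0 without E11.5 replicate 2 or any 1 E17.5 list. With lists of equal size rises outnumbered falls at Igf2bp3 (7 and 4 of 24), Arid3a (7 and 4 of 27), Hmga1 (3 and 1 of 17), Igf2bp2 (2 and 0 of 11) and Igf2bp1 (4 and 1 of 15). Falls still outnumbered rises at Lin28b (4 and 0 of 11), Hmga2 (6 and 3 of 21) and Lin28a (5 and 3 of 15). Of all regions, 19.4% rose and 23.1% fell with lists of equal size, so falls outnumbered rises there too. In all, 26 member regions, 14.8% of those tested, were called in every E11.5 list and in no E17.5 list, as were 14.7% of all regions. The reverse held for 4 member regions, 2.27%, and 6.20% of all regions.

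**Figure D1:**
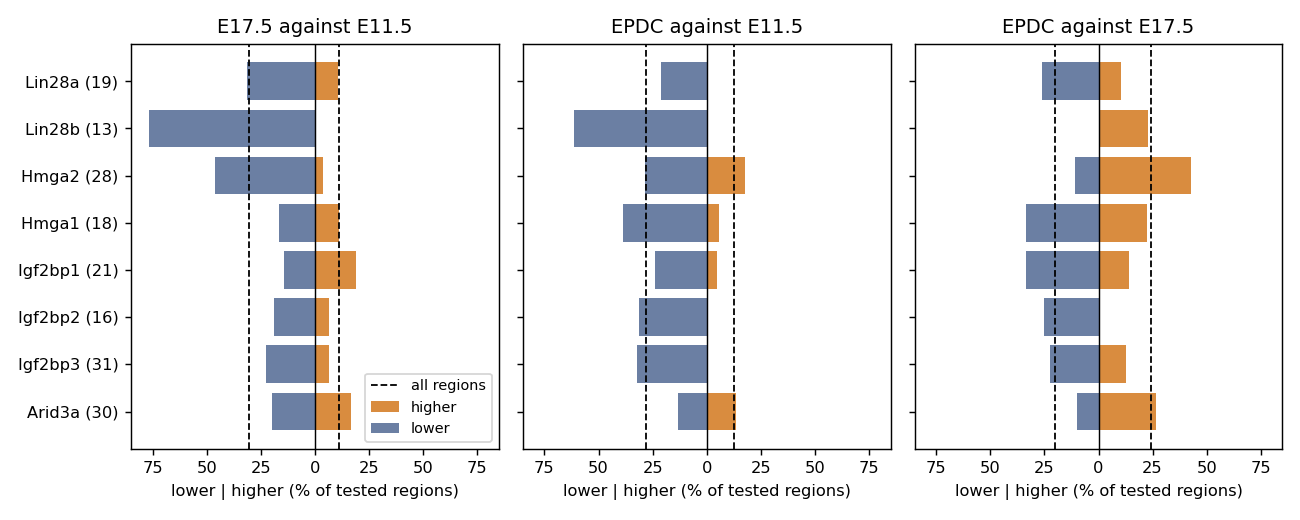
Share of tested regions at each of the 8 loci, in percent, that were higher or lower in each of the 3 comparisons by limma at an adjusted p below 0.05, with the share of all 130905 regions as dashed lines. Lin28b stands out by its falls from E11.5 to E17.5 and in EPDC against E11.5, and Hmga2 by falls from E11.5 to E17.5 and rises in EPDC against E17.5.

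Lin28b, the LIN28 form that persists into later fetal life, lies on the minus strand at chr10:45376620-45486395, and its window also holds the start of Bves, a muscle and epicardial membrane protein. The number of summits in the window was 19 ± 1.73 per list in E11.5 epicardium, 6.33 ± 1.53 per list in E17.5 epicardium and 8 ± 2 in EPDC (SD, n = 3), and all E11.5 lists were above all others. With each list cut to equal size the means were 16.3, 6 and 6.67. Of the 11 tested regions inside the gene, 9 fell from E11.5 to E17.5, where 30.5% of all regions did. These falls include regions that only E11.5 lists called and that therefore had to fall.

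The Lin28b promoter did not show this loss. Its region in the first exon (chr10:45486046-45486546) stood at 83.4, 85.5 and 78.4 at E11.5, 74.9, 80.3 and 83 at E17.5 and 81.5, 80.5 and 85.4 in EPDC. The groups overlapped, and the difference from E11.5 to E17.5 was −3.01 ± 2.65 (SE, adjusted p = 0.41) points by limma. EPDC differed from E11.5 by 0.0462 ± 2.65 (SE, adjusted p = 1) points.

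The loss lay inside the gene, mostly in introns. The region 27.3 kb into the gene (chr10:45458883-45459383), the first sequence printed, stood at 48.8, 57 and 66.7 at E11.5, 0 throughout at E17.5 and 0 throughout in EPDC. Its mean fell by 57.5 points (−41 points with lists of equal size), and its 32, 38 and 43 fragments at E11.5 were 7.80 to 13.3 times the genome background. The region at 34.8 kb (chr10:45451340-45451840), the second sequence printed, stood at 54.8, 45.9 and 44.8 at E11.5, 0 throughout at E17.5 and 0 throughout in EPDC. Its mean fell by 48.5 points (−27.4 points with lists of equal size). Both were thus called in every E11.5 list and in no other.

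Called in the E11.5 lists alone were also 4 more regions, at 34.2, 39.9, 62.5 and 109 kb, the last in the 3′ UTR, a part of the messenger where microRNAs bind. The 34.2 kb region stood at 27.8, 51.4 and 42.7 at E11.5 and fell by 40.7 points (−18 points with lists of equal size). The 39.9 kb region stood at 37.4, 35.7 and 31 and fell by 34.7 points (−8.68 points with lists of equal size). The 3′ UTR region stood at 47.9, 44.8 and 35.2 and fell by 42.6 points (−19.1 points with lists of equal size). The weakest of the 4, at 62.5 kb, stood at 25.1, 35.7 and 19.2 and was called in too few lists of equal size to be compared there, and its 17 to 25 fragments were 5.12 to 6.53 times the genome background. These 6 regions also lay outside every called interval of the E17.5 and EPDC lists, at 0 in each.

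Closer to the start, EPDC lists also held summits. The region 13.0 kb into the gene stood at 21.2, 49.7 and 24.5 at E11.5, 0 throughout at E17.5 and 22.9, 20.2 and 24.6 in EPDC. It fell by 31.8 ± 7.05 points (SE, adjusted p = 0.0063) to E17.5 in limma, while EPDC differed from E11.5 by −9.25 ± 7.05 (SE, adjusted p = 0.33) points and exceeded E17.5 by 22.5 ± 7.05 points (SE, adjusted p = 0.029). EPDC and E11.5 lists overlapped here and no E17.5 list had a summit. With lists of equal size both calls were lost (adjusted p = 0.38 and 0.31), and the difference of EPDC from E17.5 was lost without any 1 EPDC or E17.5 list. At 16.1 kb the values were 38.9, 40.5 and 37.9 at E11.5, 7.04, 0 and 0 at E17.5 and 17.2, 20.5 and 24.5 in EPDC. The 3 groups did not overlap, with EPDC 18.4 ± 4.15 points (SE, adjusted p = 0.0061) above E17.5 and E17.5 36.8 ± 4.15 points (SE, adjusted p = 0.00017) below E11.5 in limma. These calls too were lost with lists of equal size, where E17.5 against E11.5 gave −11.9 points (adjusted p = 0.081) and EPDC stood 4.42 points above E17.5 (adjusted p = 0.48).

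Other regions of the locus moved less. At 17.0 kb, near the start of an annotated shorter transcript, the values were 72.7, 66.2 and 61.1 at E11.5, 51.6, 66.7 and 42.9 at E17.5 and 57.3, 54.1 and 67.9 in EPDC, and E17.5 did not pass the test against E11.5 (adjusted p = 0.17, limma). The highest region of the window, at the start of Bves, stood at 81.6, 89.6 and 85.3 at E11.5, 80.8, 79.9 and 78.3 at E17.5 and 87.5, 84.5 and 85.9 in EPDC. Its E17.5 lists were 5.85 ± 2.01 points (SE, adjusted p = 0.045) below E11.5 in limma, a call that ended in most alternatives and turned to 3.91 points higher when summits were ranked by fold enrichment. The locus had no region higher in EPDC than at E11.5 and 8 lower (12.7% and 28.0% of all regions), and 3 higher in EPDC than at E17.5 (24.3% of all regions), a count that fell to 1 without E17.5 replicate 2 or 3, the E12.5 sample or EPDC E13.5 sample 2. At 17.6 kb the values were 25.8, 21.9 and 14.7 at E11.5, 0 throughout at E17.5 and 0, 0 and 12.3 in EPDC, and the mean fell by 20.8 points to E17.5. That difference was −7.68 points with a −log10 q of at least 5 and −49.5 points with intervals in place of summits. With lists cut to equal size, 4 of 11 regions fell from E11.5 to E17.5, where 23.1% of all regions did. The median difference was then −11.9 points, against 0 for all regions.

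**Figure D2:**
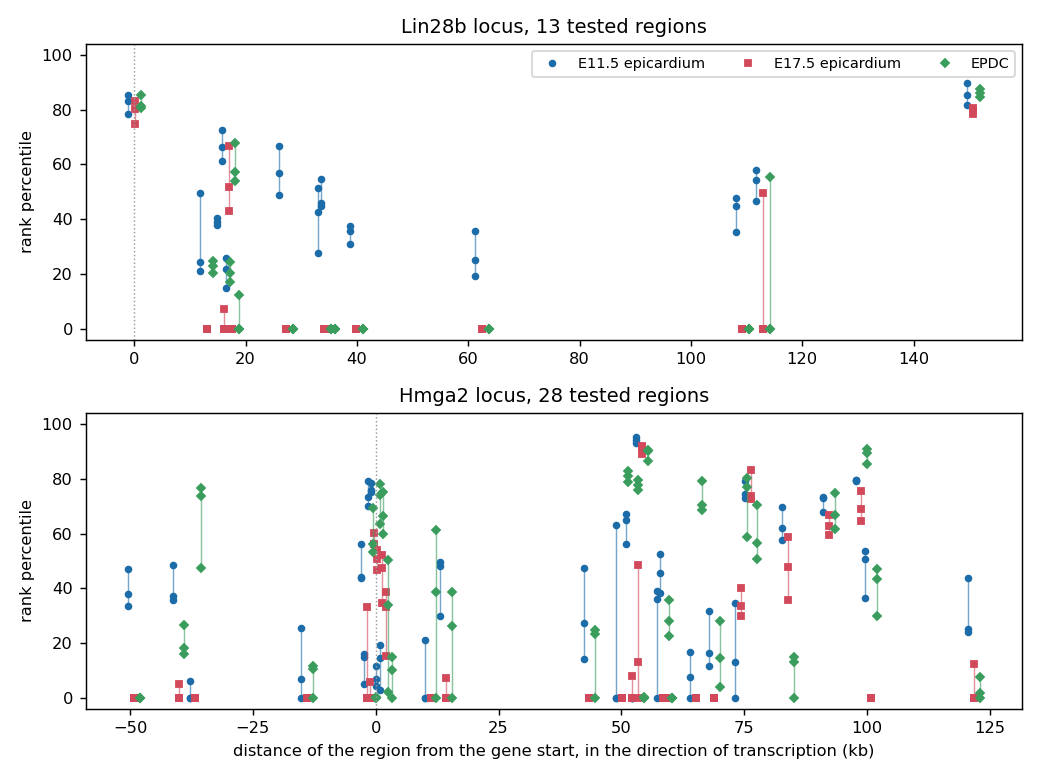
Percentile of the regions of Lin28b and Hmga2 in the 9 lists against their distance in kb from the gene start along transcription, with 1 point per list, a line for the range of each group, and groups offset by up to 1.2 kb to keep them apart. Along Lin28b the E11.5 points lie above 0 at 27.3, 34.2, 34.8, 39.9 and 62.5 kb where the E17.5 and EPDC points are at 0, and along Hmga2 the EPDC points lie between 68.6 and 79.1 at 65.3 kb, above all others.

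Lin28a, the LIN28 form of the earliest embryo, lies at chr4:134003330-134018841 on the minus strand, and its window also holds Hmgn2, Dhdds, Zfp683 and Crybg2, to which its regions may belong. Its promoter region stood at 40.9, 56.5 and 54.3 at E11.5, 33.9, 40.3 and 38.3 at E17.5 and 45, 0 and 0 in EPDC. The E11.5 and E17.5 lists did not overlap, but the difference was −13.1 ± 11.7 (SE, adjusted p = 0.42) points in limma. EPDC was 35.6 ± 11.7 points (SE, adjusted p = 0.039) below E11.5 in limma, but the region lay inside a called interval in all 3 EPDC lists, and with intervals in place of summits the adjusted p was 0.36. The call ended in most alternatives, among them fold enrichment (adjusted p = 0.57) and lists of equal size (adjusted p = 0.21). A second promoter region, 0.884 kb before the start, was called at E11.5 alone, at 11.7, 4.64 and 4.28.

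Inside Lin28a, 2 of 6 tested regions fell from E11.5 to E17.5 (30.5% of all regions). The region at 1.59 kb stood at 55.8, 56 and 49.4 at E11.5, 0, 34.7 and 0 at E17.5 and 29.7, 18 and 40.8 in EPDC, a fall of 42.1 ± 10.1 points (SE, adjusted p = 0.0094) in limma that was lost by fold enrichment (adjusted p = 0.10) and with a replicate block (adjusted p = 0.058). The region at 6.81 kb stood at 52.6, 43.2 and 31.8 at E11.5, 27.8, 15.9 and 22.7 at E17.5 and 26.4, 23.4 and 30.9 in EPDC, a fall of 20.4 ± 6.5 points (SE, adjusted p = 0.033) in limma that ended in most alternatives and turned to 5.58 points higher with intervals in place of summits. At 7.38 kb the values were 24.1, 34.2 and 37.1 at E11.5, 30.4, 68.3 and 51 at E17.5 and 0, 0 and 18.8 in EPDC, and EPDC was 43.6 ± 9.9 points (SE, adjusted p = 0.0063) below E17.5 in limma, a call lost with intervals (adjusted p = 0.081).

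Further differences lay outside Lin28a. Near Zfp683, 33.9 kb before the start, the values were 85.4, 88 and 90.3 at E11.5, 35.4, 45.6 and 37.6 at E17.5 and 68.6, 72.8 and 77.8 in EPDC. The 3 groups did not overlap, with a fall of 48.4 ± 4 points (SE, adjusted p = 3.6e-05) to E17.5 and EPDC 33.5 ± 4 points (SE, adjusted p = 0.00018) above E17.5 in limma. At 23.1 kb before the start the values were 54.8, 66.3 and 61.4 at E11.5, 0, 35.5 and 19.3 at E17.5 and 72.9, 82.4 and 85.4 in EPDC, and EPDC lay 62 ± 8.93 points (SE, adjusted p = 0.00052) above E17.5 in limma. Inside Crybg2, at 43.5 kb, the order was the reverse, with 0, 48 and 39.4 at E11.5, 84.2, 81.8 and 84.6 at E17.5 and 0, 0 and 0.757 in EPDC. This region rose by 54.4 ± 11.1 points (SE, adjusted p = 0.0041) to E17.5 and was 83.3 ± 11.1 points (SE, adjusted p = 0.00033) lower in EPDC than at E17.5 in limma. In an exon of Crybg2, 47.0 kb before the start, they were 57.6, 63.8 and 65 at E11.5, 0, 59.2 and 0 at E17.5 and 0, 0 and 21.7 in EPDC, and only 1 list of each other group held a summit. The highest region of the window, at the start of Dhdds 17.9 kb past the Lin28a start, was between percentiles 96.2 and 99 in all lists.

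Hmga2, the fetal HMGA form and a let-7 target with many sites in its messenger, lies at chr10:120361275-120476469 on the minus strand, with no other protein-coding gene in its window. Its summits numbered 31 ± 4.36 per list in E11.5 epicardium, 18 ± 6.08 per list in E17.5 epicardium and 30.3 ± 8.33 in EPDC (SD, n = 3). The lists of EPDC and E11.5 overlapped in this number, and all E17.5 lists were below all E11.5 lists. With lists of equal size the means were 18.3, 15 and 21.7, and E11.5 and E17.5 met at 17. Within the gene, 8 of 20 tested regions fell from E11.5 to E17.5 and 1 rose (30.5% and 11.2% of all regions), and 8 were higher in EPDC than at E17.5 and 3 lower (24.3% and 20% of all regions). Those 3 falls became 1 without E17.5 replicate 2, the E12.5 sample or EPDC E13.5 sample 1.

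Both strong promoter regions of Hmga2 fell with stage. The region in the 5′ UTR (chr10:120475898-120476398) stood at 75.1, 76 and 78.3 at E11.5, 46.6, 54 and 50.8 at E17.5 and 66.4, 59.9 and 75.3 in EPDC. It fell by 26.1 ± 4.56 points (SE, adjusted p = 0.0018) to E17.5 and EPDC lay 16.8 ± 4.56 points (SE, adjusted p = 0.015) above E17.5 in limma, with every EPDC list above every E17.5 list. The difference of EPDC from E11.5 was −9.29 ± 4.56 (SE, adjusted p = 0.14) points. The region 0.301 kb before the start stood at 70.2, 79 and 73.4 at E11.5, 56.3, 60.3 and 56.3 at E17.5 and 74.2, 63.7 and 78.2 in EPDC, and fell by 16.6 ± 4.39 points (SE, adjusted p = 0.015) to E17.5 in limma. That call was lost without E11.5 replicate 2 (adjusted p = 0.057), with lists of equal size (adjusted p = 0.056) and when summits were ranked by fold enrichment. EPDC lay 14.4 ± 4.39 points (SE, adjusted p = 0.026) above E17.5 in limma, a call lost by fold enrichment (adjusted p = 0.083) and without E17.5 replicate 1 or 3, the E12.5 sample or EPDC E13.5 sample 2.

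The 1 region of the locus that rose to E17.5 lay at 1.26 kb. It stood at 11.8, 6.97 and 4.49 at E11.5, 34.7, 47.4 and 52.2 at E17.5 and 2.06, 34 and 50.4 in EPDC, a rise of 37 ± 11.1 points (SE, adjusted p = 0.026) to E17.5 in limma. The E11.5 and E17.5 lists did not overlap, but the call was lost with intervals in place of summits (adjusted p = 0.27) and without any 1 of the E11.5 lists or of E17.5 replicates 2 and 3.

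At Hmga2, regions that lost most or all of their summits by E17.5 differed in their state in EPDC. The region at 52.2 kb (chr10:120424022-120424522), the first Hmga2 sequence printed, stood at 65.1, 56 and 67.3 at E11.5, 0, 8.07 and 0 at E17.5 and 77.7, 79.6 and 75.9 in EPDC. It fell by 60.1 ± 5.64 points (SE, adjusted p = 6.5e-05) to E17.5, while EPDC lay 75 ± 5.64 points (SE, adjusted p = 1.6e-05) above E17.5 in limma and did not pass the test against E11.5 (adjusted p = 0.064). In fragments it held 97 to 110 at E11.5 and 141 to 426 in EPDC, and 47 in the 1 E17.5 list that called it. The region at 101 kb was called in all lists at E11.5 and in EPDC, with 36.5, 50.8 and 53.7 at E11.5, 0 throughout at E17.5 and 29.8, 43.4 and 47 in EPDC, and E17.5 47 ± 6.53 points (SE, adjusted p = 0.00051) below E11.5 in limma.

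Other regions had no summit in EPDC either. At 59.1 kb the values were 52.6, 38.4 and 45.4 at E11.5, 0 throughout at E17.5 and 0 throughout in EPDC, so that the mean fell by 45.5 points (−22.8 points with lists of equal size). At 49.2 kb before the start they were 47.1, 37.9 and 33.6 at E11.5, 0 throughout at E17.5 and 0 throughout in EPDC, and the mean fell by 39.5 points (−15 points with lists of equal size). Both were thus called in every E11.5 list and in none of the others.

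Hmga2 was also the locus with the largest gains in EPDC. The region at 65.3 kb (chr10:120410954-120411454), the second Hmga2 sequence printed, stood at 7.57, 0 and 16.8 at E11.5, 0 throughout at E17.5 and 70.4, 68.6 and 79.1 in EPDC. The EPDC mean was 64.6 points above E11.5 and no EPDC list overlapped the other groups, with 60, 77 and 240 fragments in EPDC and 16 and 18 in the 2 E11.5 lists that called it. At 36.7 kb before the start the values were 0, 0 and 6.08 at E11.5, 0 throughout at E17.5 and 47.3, 73.8 and 76.8 in EPDC, with the EPDC mean 64 points above E11.5. At 50.1 kb into the gene they were 0, 63.3 and 0 at E11.5, 0 throughout at E17.5 and 78.9, 80.9 and 82.7 in EPDC. The EPDC mean was 59.7 points above E11.5 at this region, where 1 E11.5 list was also high.

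At 74.4 kb, EPDC stood above epicardium of both stages, with 0, 13.2 and 34.8 at E11.5, 33.5, 40.1 and 30.1 at E17.5 and 58.6, 80.3 and 77 in EPDC. The difference from E11.5 was 56 ± 9.78 points (SE, adjusted p = 0.002) in limma. At 83.9 kb the order was the reverse, with 57.7, 69.7 and 61.9 at E11.5, 47.9, 58.6 and 35.6 at E17.5 and 13.1, 0 and 15 in EPDC, and EPDC was 53.8 ± 7.68 points (SE, adjusted p = 0.00069) below E11.5 in limma. The 5 rises and 8 falls of the locus in EPDC against E11.5 became 3 and 5 without E11.5 replicate 3, and 7 and 4 with lists of equal size. The shares of all regions were 12.7% and 28.0%, and 19.7% and 22.9% with lists of equal size. The highest region, at 54.3 kb, was called in every list, between percentiles 86.4 and 95.3, and EPDC was 5.08 ± 1.32 points (SE, adjusted p = 0.014) below E11.5 in limma. That call ended without E11.5 replicate 3 (adjusted p = 0.057), with the log2 score (adjusted p = 0.081) and with no trend in the variance (adjusted p = 0.10).

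Hmga1, the broadly expressed HMGA form, lies at chr17:27556497-27563674 on the plus strand near Grm4, AI413582 and Nudt3. Its chromatin was open at the start in all groups. The strongest promoter region, 0.852 kb before the start, stood at 96.1, 96.2 and 95 at E11.5, 87.8, 89.5 and 87.3 at E17.5 and 93, 89.8 and 91.5 in EPDC. All E17.5 lists were below all E11.5 lists, with a fall of 7.56 ± 0.998 points (SE, adjusted p = 0.00039) in limma. The region 0.066 kb past the start stood at 80.3, 80.2 and 82.5 at E11.5, 83.7, 83.9 and 84.6 at E17.5 and 77.2, 78.4 and 86.2 in EPDC and did not pass the test in E17.5 against E11.5 (adjusted p = 0.33, limma). A further one, at 0.948 kb, stood at 23.3, 15.9 and 41.6 at E11.5, 26.6, 36.2 and 34.2 at E17.5 and 29.9, 53.3 and 0 in EPDC, with the groups overlapping. The highest region of the window, 9.27 kb from the start, was between percentiles 93.9 and 96.8 in every list.

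The locus had 1 region higher and 7 lower in EPDC than at E11.5 (12.7% and 28.0% of all regions). The 7 became 4 without E11.5 replicate 2 and 2 of 17 with lists of equal size, where 22.9% of all regions were lower. The region 9.09 kb before the start stood at 58.1, 62.7 and 65.1 at E11.5, 88.1, 93.6 and 88.8 at E17.5 and 51.3, 58.9 and 62.9 in EPDC. It rose by 28.2 ± 3.75 points (SE, adjusted p = 0.0004) to E17.5 and was 32.5 ± 3.75 points (SE, adjusted p = 0.00015) lower in EPDC than at E17.5 in limma, and the E11.5 and EPDC lists overlapped. At 5.84 kb, inside the gene, the values were 35.9, 62.8 and 39.7 at E11.5, 27, 62.7 and 58.3 at E17.5 and 1.51, 0 and 0 in EPDC, and EPDC was 45.7 ± 10.5 points (SE, adjusted p = 0.008) below E11.5 in limma. That call was lost with lists of equal size (adjusted p = 0.053) and by fold enrichment, where the difference was −8.62 points (adjusted p = 0.24). A region in Nudt3, about 40 kb from the start, was mainly called in EPDC, with 0 throughout at E11.5, 0, 0 and 5.84 at E17.5 and 10.2, 46.8 and 63.4 in EPDC, a difference of 40.1 points from E11.5.

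The main promoter regions of the 3 IGF2BP genes were called in every EPDC list. Inside the genes, 2 of 8 tested regions of Igf2bp1, 2 of 11 of Igf2bp2 and 7 of 15 of Igf2bp3 were lower in EPDC than at E11.5, where 28.0% of all regions were. For Igf2bp1, at chr11:95957163-96005940 on the minus strand, the region over the start stood at 61.6, 59.7 and 56.7 at E11.5, 59.4, 59.7 and 58.8 at E17.5 and 51.7, 65.9 and 65.4 in EPDC. The groups overlapped, and no comparison passed the test (adjusted p = 1, 0.84 and 0.84 in limma). In contrast, the intronic region 0.865 kb past the start (chr11:96004825-96005325), the first Igf2bp1 sequence printed, stood at 0 throughout at E11.5, 38.8, 42.8 and 40.3 at E17.5 and 0, 1.64 and 8.83 in EPDC. Its mean was 40.6 points higher at E17.5 than at E11.5, and all E17.5 lists lay above all others. A further promoter region, 0.529 kb before the start, was called in 5 lists at up to 28.8 and did not pass the test in any comparison. At 1.31 kb before the start the values were 77.3, 86.6 and 83.7 at E11.5, 66.9, 66.3 and 72.4 at E17.5 and 88, 83.9 and 86.7 in EPDC, with a fall of 14 ± 2.78 points (SE, adjusted p = 0.0035) to E17.5 in limma. That call was lost by fold enrichment (adjusted p = 0.13).

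Further regions of Igf2bp1 that were higher at E17.5 lay outside the gene. In B4galnt2, 96.5 kb from the start, the values were 0, 0 and 2.41 at E11.5, 51.9, 50.9 and 47.6 at E17.5 and 0 throughout in EPDC, a difference of 49.3 points from E11.5 to E17.5. At 28.3 kb before the start they were 0 throughout at E11.5, 28.5, 30.9 and 34.7 at E17.5 and 0 throughout in EPDC, a difference of 31.3 points. At 41.3 kb, in Snf8, the values were 0, 0 and 5.23 at E11.5, 31.5, 17.6 and 21.9 at E17.5 and 0 throughout in EPDC. These regions lie in or near B4galnt2, Gip, Snf8 and Ube2z, and their gene cannot be told from the lists.

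Igf2bp1 had 5 regions lower and 1 higher in EPDC than at E11.5 (28.0% and 12.7% of all regions), with 2 of the lower ones inside the gene. At 17.2 kb (chr11:95988466-95988966), the second Igf2bp1 sequence printed, the values were 70.5, 79.6 and 78.9 at E11.5, 74.5, 81.6 and 80.2 at E17.5 and 14.2, 19.7 and 17.7 in EPDC. E17.5 differed from E11.5 by 2.45 ± 4.76 (SE, adjusted p = 0.74) points, while EPDC was 59.1 ± 4.76 points (SE, adjusted p = 3.5e-05) below E11.5 and 61.5 ± 4.76 points (SE, adjusted p = 1.8e-05) below E17.5 in limma. In Gip, 23.1 kb before the start, the values were 0, 28.8 and 0 at E11.5, 0 throughout at E17.5 and 52.6, 64.6 and 78.8 in EPDC, and the EPDC mean was 55.7 points above E11.5. A region 9.68 kb before the start stood at 70.7, 71.3 and 75.6 at E11.5, 49.4, 66.2 and 58 at E17.5 and 46.5, 0 and 0 in EPDC, and EPDC was 57.1 ± 12.1 points (SE, adjusted p = 0.0053) below E11.5 in limma. The highest region, 12.3 kb before the start, was between percentiles 90.9 and 97.9 in every list.

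For Igf2bp2, at chr16:22059009-22163299 on the minus strand, the promoter region stood at 86.1, 81.7 and 77.3 at E11.5, 83.5, 85.4 and 87.2 at E17.5 and 82.2, 83.1 and 89.3 in EPDC. No comparison passed the test (adjusted p = 0.3, 0.37 and 0.94 in limma). Further promoter regions were called in too few lists to be tested, at 0.922 kb in E11.5 replicate 3 alone (4.57) and 0.939 kb before the start in E17.5 replicates 1 and 2 (5.47 and 53.7). The highest region of the window, 154 kb from the start and next to Senp2, was between percentiles 97.5 and 99.3 in every list. The locus had no region higher in EPDC than at E11.5 or E17.5 (12.7% and 24.3% of all regions). It had 5 lower than at E11.5 (28.0% of all regions) and 4 lower than at E17.5 (20% of all regions), and without the E12.5 sample the former became 3 while 2 regions were higher than at E11.5 and 3 higher than at E17.5.

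The largest falls of Igf2bp2 in EPDC were inside the gene. At 11.46 kb the values were 74.5, 80 and 82 at E11.5, 87.3, 89.3 and 85 at E17.5 and 33.3, 12.7 and 34.5 in EPDC, and EPDC was 52 ± 5.97 points (SE, adjusted p = 0.00021) below E11.5 in limma. At 38.5 kb they were 80.3, 79.5 and 81.4 at E11.5, 79.7, 85.6 and 82.1 at E17.5 and 28.8, 35.5 and 41.6 in EPDC, and EPDC was 45.1 ± 3.98 points (SE, adjusted p = 5.5e-05) below E11.5. All EPDC lists were below all epicardial lists at both regions, and E17.5 and E11.5 did not differ past the threshold at 11.46 kb (adjusted p = 0.3). At 44.2 kb both epicardial stages and EPDC differed, with 24, 21.6 and 24.5 at E11.5, 44.6, 70.5 and 64.4 at E17.5 and 0, 0 and 17.3 in EPDC, a rise of 36.5 ± 7.83 points (SE, adjusted p = 0.0053) to E17.5 in limma and EPDC 54.1 ± 7.83 points (SE, adjusted p = 0.00053) below E17.5.

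For Igf2bp3, at chr6:49085223-49214957 on the minus strand, the promoter region stood at 80.7, 81.1 and 75.8 at E11.5, 49.3, 72.3 and 58 at E17.5 and 81.3, 80.1 and 84.4 in EPDC. It fell by 19.3 ± 5.15 points (SE, adjusted p = 0.015) to E17.5 and EPDC lay 22 ± 5.15 points (SE, adjusted p = 0.0073) above E17.5 in limma. The fall did not pass the test by fold enrichment (adjusted p = 0.16) or with intervals in place of summits (adjusted p = 0.066). Nor did it pass with the compared groups alone (adjusted p = 0.061), with a replicate block (adjusted p = 0.082) or without E11.5 replicate 1 or 2. The neighbouring promoter region, 0.552 kb before the start, stood at 80.8, 84.1 and 83.2 at E11.5, 77.2, 79.3 and 74.7 at E17.5 and 87.3, 80.8 and 85.9 in EPDC, and did not pass the test in E17.5 against E11.5 (adjusted p = 0.061, limma). At 4.40 kb the values were 81.8, 83.8 and 91.1 at E11.5, 70.1, 74.3 and 60.6 at E17.5 and 84.5, 80.4 and 84.6 in EPDC, a fall of 17.2 ± 3.75 points (SE, adjusted p = 0.0057) to E17.5 in limma. That call was lost by fold enrichment (adjusted p = 0.059) and with a replicate block (adjusted p = 0.10).

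Introns of Igf2bp3 held regions with opposite courses. At 114 kb the values were 40.9, 37 and 32.7 at E11.5, 0 throughout at E17.5 and 0 throughout in EPDC, and the mean fell by 36.9 points (−11 points with lists of equal size). At 48.5 kb they were 51.1, 48.3 and 55.2 at E11.5, 0 throughout at E17.5 and 0, 0 and 23.4 in EPDC, where the mean fell by 51.5 points, and at 56.0 kb they were 44.3, 46.5 and 45.7 at E11.5, 0 throughout at E17.5 and 21.3, 9.14 and 25.8 in EPDC, a fall of 45.5 ± 4.93 points (SE, adjusted p = 0.00013) in limma. With lists of equal size the latter pair gave −31.9 and −23.5 points. All 3 were called in every E11.5 list and no E17.5 list, and EPDC ranged from 0 to part of the E11.5 value.

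At 118.4 kb (chr6:49096355-49096855), the Igf2bp3 sequence printed, the values were 38.5, 44.8 and 43.2 at E11.5, 75.6, 90 and 88.8 at E17.5 and 0, 19.9 and 0 in EPDC. The region rose by 42.7 ± 7.42 points (SE, adjusted p = 0.0018) to E17.5 and EPDC was 78.2 ± 7.42 points (SE, adjusted p = 5e-05) below E17.5 in limma. All EPDC lists had a called interval over it, and with intervals in place of summits the rise was 12.9 points and EPDC was 1.36 points above E11.5 and 11.6 points below E17.5. At 106 kb the values were 21.4, 47.2 and 38.4 at E11.5, 56.4, 69.5 and 61.1 at E17.5 and 0 throughout in EPDC, a rise of 26.7 ± 7.24 points (SE, adjusted p = 0.017) to E17.5 that was lost without E17.5 replicate 2 (adjusted p = 0.053), and EPDC was 62.3 ± 7.24 points (SE, adjusted p = 0.00015) below E17.5 in limma. In Tra2a, 42.1 kb before the start, all epicardial lists and 1 EPDC list were called, with 58.6, 64.5 and 63.6 at E11.5, 54, 74.9 and 63.1 at E17.5 and 0, 0 and 6.69 in EPDC and EPDC 60 ± 6.63 points (SE, adjusted p = 0.00018) below E11.5 in limma. A Tra2a exon at 48.5 kb had the same order, but its EPDC difference from E11.5 became 0.348 points with intervals in place of summits. The highest region, 3.15 kb before the start, was between percentiles 95.7 and 98.4 in every list. The locus had 10 regions lower in EPDC than at E11.5 and none higher (28.0% and 12.7% of all regions), and 2 higher without the E12.5 sample.

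**Figure D3:**
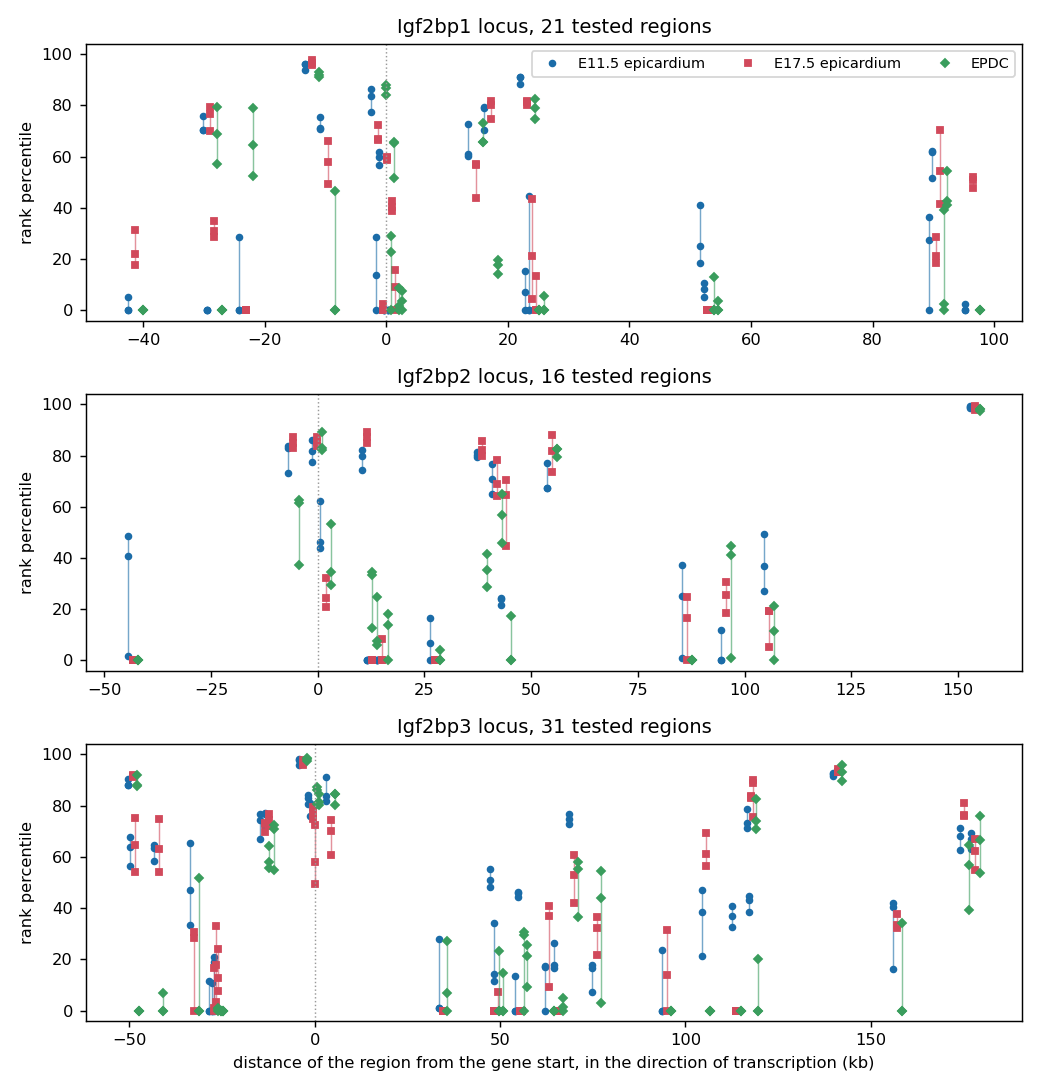
Percentile of the regions of Igf2bp1, Igf2bp2 and Igf2bp3 in the 9 lists against their distance in kb from the gene start along transcription, with 1 point per list and a line for the range of each group. EPDC points sit below both epicardial groups at 17.2 kb of Igf2bp1, at 11.46 and 38.5 kb of Igf2bp2 and at 106 kb of Igf2bp3.

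Arid3a lies at chr10:79927043-79955018 on the plus strand, in a window with 12 other protein-coding genes. Its main promoter region stood at 84.5, 82.2 and 80 at E11.5, 82.9, 86.2 and 86.4 at E17.5 and 79.5, 75.8 and 83.2 in EPDC. The E11.5 lists overlapped both other groups and no comparison passed the test (adjusted p = 0.32, 0.35 and 0.063 in limma). A second promoter region, at 0.684 kb, stood at 57.9, 0 and 37.7 at E11.5, 2.44, 0 and 38.1 at E17.5 and 59.2, 60.9 and 73.6 in EPDC. EPDC was 51 ± 15.3 points (SE, adjusted p = 0.024) above E17.5 in limma, which turned to −5.65 points with intervals in place of summits.

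Inside Arid3a, neighbouring regions took opposite courses with stage. At 7.46 kb (chr10:79934252-79934752) the values were 0 throughout at E11.5, 67.3, 71.9 and 72.3 at E17.5 and 0 throughout in EPDC. It was called in all E17.5 lists and no other, a difference of 70.5 points and the largest rise with stage inside any of the 8 genes. At 5.88 kb they were 69.2, 61 and 63.2 at E11.5, 0, 22 and 16 at E17.5 and 65.6, 62.4 and 68.2 in EPDC, a fall of 51.8 ± 6.82 points (SE, adjusted p = 0.00038) to E17.5 with EPDC 52.7 ± 6.82 points (SE, adjusted p = 0.00028) above E17.5 in limma. About 10 kb in they were 15.4, 19.4 and 29.8 at E11.5, 59.6, 67.7 and 65.4 at E17.5 and 29.6, 37.2 and 53.5 in EPDC, a rise of 42.7 ± 7.56 points (SE, adjusted p = 0.0019) to E17.5 in limma. In Med16, 29.5 kb before the start, the values were 57.1, 66.4 and 45.3 at E11.5, 0 throughout at E17.5 and 0, 5.83 and 0 in EPDC, and the mean fell by 56.3 points to E17.5.

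Outside Arid3a, 3 regions of the window rose and 5 fell from E11.5 to E17.5 (11.2% and 30.5% of all regions). At 59.3 kb, between Tmem259 and Cnn2, the values were 0 throughout at E11.5, 20.1, 57.8 and 52.2 at E17.5 and 0 throughout in EPDC, a difference of 43.4 points that became 2.54 points when summits were ranked by fold enrichment. At 61.5 kb they were 14.5, 15.9 and 0 at E11.5, 37.1, 44.8 and 30.2 at E17.5 and 62.9, 63.6 and 70.9 in EPDC, and the groups did not overlap, with EPDC 55.7 ± 6.71 points (SE, adjusted p = 0.00028) above E11.5 in limma. In Abca7, at 76.5 kb, they were 0, 16.7 and 0 at E11.5, 0 throughout at E17.5 and 15.8, 46.8 and 55.7 in EPDC, and the EPDC mean was 33.9 points above E11.5 (17.8 points with intervals in place of summits). The highest region, 33.0 kb from the start at Wdr18, was between percentiles 97.8 and 98.9 in every list.

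**Figure D4:**
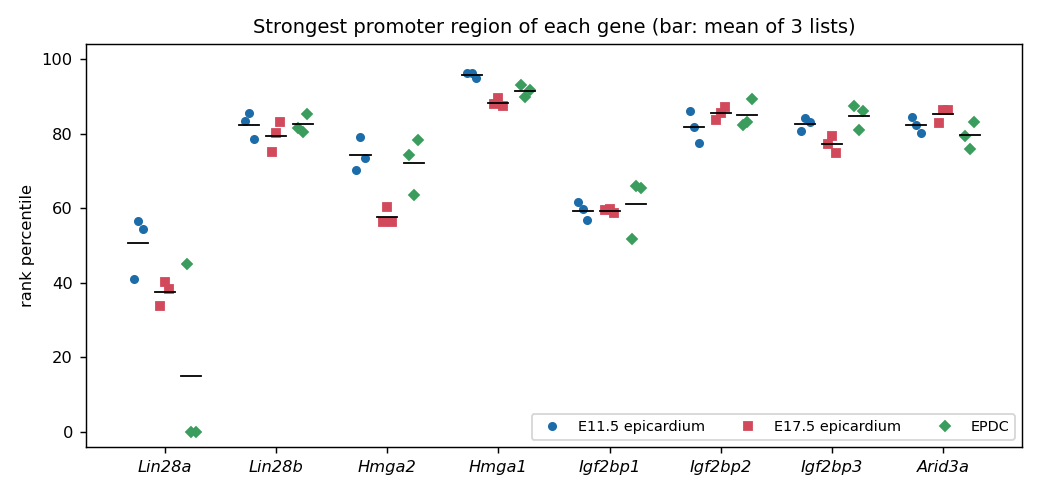
Percentile of the strongest promoter region (within 1 kb of the start) of each of the 8 genes in the 9 lists, with 1 point per list and a bar for the mean of each group. The 3 groups lie close together at Lin28b, Igf2bp1, Igf2bp2 and Arid3a, while all E17.5 points lie below all E11.5 points at Lin28a, Hmga2, Hmga1 and Igf2bp3.

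The let-7 genes, whose microRNAs LIN28 holds back, were read from a list of 12 precursors by regions within 10 kb of each. Tested regions lay near 10 precursors, some shared within a cluster, and Mirlet7f-2 and Mir98 had none. Of the 26 tested regions 4 rose and 2 fell from E11.5 to E17.5, where 11.2% and 30.5% of all regions did. In EPDC 3 were higher and 2 lower than at E11.5 (12.7% and 28.0% of all regions), and 2 were higher and 4 lower than at E17.5 (24.3% and 20% of all regions). The mature 5′ microRNAs of the precursors with a called region share the seed, bases 2 to 8, shown in capitals in the RefSeq sequences of GRCm38.p6.
let-7a-5p: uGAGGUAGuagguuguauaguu
let-7b-5p: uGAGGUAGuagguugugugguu
let-7c-5p: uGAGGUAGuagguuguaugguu
let-7d-5p: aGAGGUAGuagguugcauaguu
let-7e-5p: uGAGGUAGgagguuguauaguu
let-7f-5p: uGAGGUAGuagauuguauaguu
let-7g-5p: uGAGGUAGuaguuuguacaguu
let-7i-5p: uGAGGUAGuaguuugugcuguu

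At 3 let-7 regions the E17.5 lists stood above all others, and but for 1 weak EPDC summit they alone were called. The region 0.952 kb before Mirlet7a-1, which starts a cluster with Mirlet7f-1 and Mirlet7d, stood at 0 throughout at E11.5, 42.1, 52.3 and 53.9 at E17.5 and 0 throughout in EPDC, a difference of 49.5 points. The region 4.95 kb before Mirlet7c-1 stood at 0 throughout at E11.5, 63.8, 65.6 and 63.6 at E17.5 and 0, 5.91 and 0 in EPDC, a difference of 64.3 points. Its neighbour, 5.70 kb before Mirlet7c-1, was called in every list, between percentiles 45.9 and 70.1, and passed the test in no comparison. The region 2.65 kb past Mirlet7i stood at 0 throughout at E11.5, 39.5, 69.6 and 40.7 at E17.5 and 0 throughout in EPDC, a difference of 49.9 points.

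Other let-7 regions took different courses. The region 2.19 kb before Mirlet7i stood at 51.5, 63.4 and 59.5 at E11.5, 0, 8.11 and 0 at E17.5 and 0, 0 and 44.4 in EPDC, and the mean fell by 55.4 points to E17.5. The region 1.58 kb before Mirlet7e was open in every list, at 82.2, 88.2 and 85.8 at E11.5, 66.4, 66.4 and 68.8 at E17.5 and 89.2, 88.6 and 87.4 in EPDC, with a fall of 18.2 ± 1.86 points (SE, adjusted p = 9.8e-05) to E17.5 in limma. Near Mirlet7a-2, the region at 9.22 kb stood at 0, 37.9 and 0 at E11.5, 55.5, 60.5 and 62.3 at E17.5 and 61.5, 71.3 and 78.6 in EPDC, so that it was higher in both E17.5 epicardium and EPDC, by 46.8 ± 10.5 points (SE, adjusted p = 0.0065) and 57.8 ± 10.5 points (SE, adjusted p = 0.0024) in limma. The region 4.17 kb before it stood at 0 throughout at E11.5, 0, 7.28 and 0 at E17.5 and 57.9, 66.9 and 75.1 in EPDC, a difference of 66.6 points between EPDC and E11.5. The region 5.66 kb past Mirlet7b stood at 0 throughout at E11.5, 0, 0 and 30.1 at E17.5 and 17.4, 34.3 and 33.5 in EPDC. EPDC differed from E11.5 by −3.53 ± 1.04 (SE, adjusted p = 0.025) points at 7.86 kb before Mirlet7g, and from E17.5 by −61.3 ± 20.6 (SE, adjusted p = 0.039) points at 4.08 kb before Mirlet7e, in limma. The neighbouring region 3.41 kb before Mirlet7e was between percentiles 87.3 and 92.8 in every list and passed the test in no comparison.

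**Figure D5:**
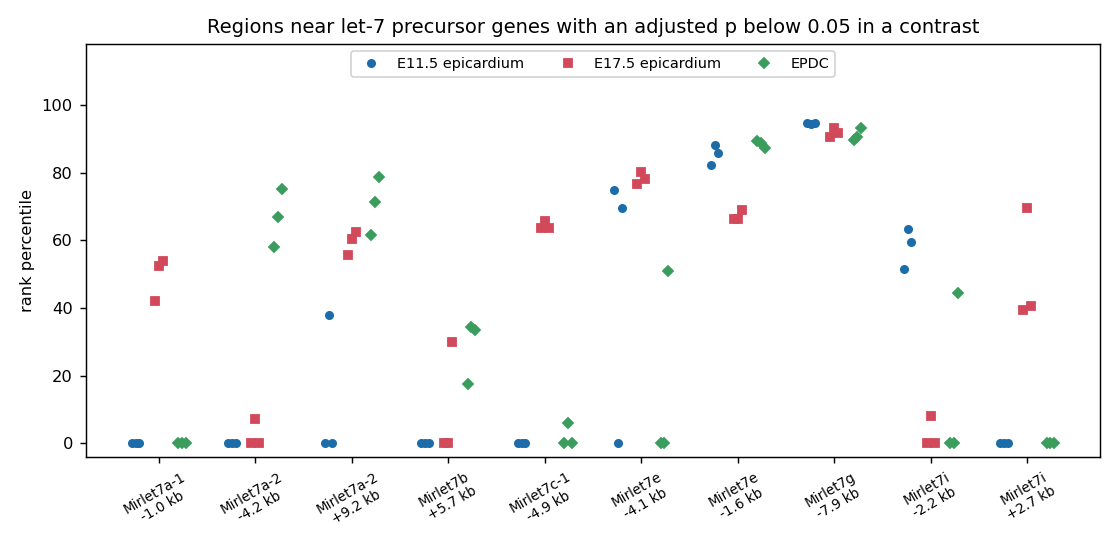
Percentile in the 9 lists of the 10 regions within 10 kb of a let-7 precursor with an adjusted p below 0.05 in at least 1 comparison, with 1 point per list. The regions 0.952 kb before Mirlet7a-1, 4.95 kb before Mirlet7c-1 and 2.65 kb past Mirlet7i have points above 0 at E17.5 alone, but for 1 EPDC point at 5.91 near Mirlet7c-1.

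The partners of LIN28 and let-7 were read at their promoters. Of 15 names of let-7 processing and turnover, 13 were found, with 23 tested promoter regions, of which 1 rose and 2 fell from E11.5 to E17.5 (11.2% and 30.5% of all regions). The rise was at Trim71, a let-7 target of early embryos, at 18, 13.9 and 10.8 at E11.5, 36.2, 45.1 and 52.3 at E17.5 and 0, 2.02 and 0 in EPDC, 30.3 ± 4.93 points (SE, adjusted p = 0.0012) higher at E17.5 in limma. The Trim71 region nearer to the start, at 0.255 kb, stood at 55.5, 56.8 and 55.2 at E11.5, 0, 38.8 and 56.3 at E17.5 and 56.6, 0 and 75.1 in EPDC, a difference of −24.1 ± 19.7 (SE, adjusted p = 0.37) points from E11.5 to E17.5. EPDC had 2 of the 23, at Xpo5 and Ddx3x, lower than E11.5 (28.0% of all regions). The Xpo5 region lay 0.585 kb past the start. The other Xpo5 region, 0.042 kb before the start, was between percentiles 87.3 and 92.9 in all lists, and EPDC did not pass the test against E11.5 (adjusted p = 0.41, limma). Against E17.5, 2 were higher, at Tut4 and Hnrnpa1, and 4 lower, at Xpo5, Trim71, Hnrnpa1 and Ddx3x (24.3% and 20% of all regions). The falls were at Tut4, which tails let-7 precursors bound by LIN28, of 5.84 ± 1.07 points (SE, adjusted p = 0.0024), and at Hnrnpa1, which binds let-7 precursors, of 1.73 ± 0.52 points (SE, adjusted p = 0.026) in limma. The Hnrnpa1 fall lay 0.925 kb before the start. At 0.122 kb before that start E17.5 differed from E11.5 by 0.353 ± 0.422 points (SE, adjusted p = 0.56, limma). Of 17 other let-7 targets and fetal growth partners, 16 had a tested promoter region and Igf2 had none. Of their 22 regions 2 rose and 5 fell from E11.5 to E17.5, shares of all regions being 11.2% and 30.5%.

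The largest rise among these targets was at Igf1r, the receptor of the insulin-like growth factors. It stood at 0, 13.3 and 0 at E11.5, 56, 49.2 and 57.3 at E17.5 and 0, 10.4 and 21.3 in EPDC, with E17.5 49.7 ± 6.56 points (SE, adjusted p = 0.00039) above E11.5 and EPDC 43.6 ± 6.56 points (SE, adjusted p = 0.00066) below E17.5 in limma. No E17.5 list overlapped the others there. The largest fall that passed the threshold was at Myc, a growth-promoting transcription factor, 0.955 kb before its start. This region stood at 61.2, 56.5 and 47.8 at E11.5, 0, 30.7 and 40.8 at E17.5 and 53.1, 43.3 and 51.4 in EPDC, a fall of 31.4 ± 10.2 points (SE, adjusted p = 0.036) to E17.5 in limma. The stronger Myc region, 0.119 kb before the start, fell by 3.36 ± 0.74 points (SE, adjusted p = 0.006). Nras fell by 5.87 ± 0.945 points (SE, adjusted p = 0.0012), Ccnd2 fell by 8.52 ± 2.13 points (SE, adjusted p = 0.011) and Thbs1 fell by 8.24 ± 2.13 points (SE, adjusted p = 0.013) in limma. Irs2 rose by 3.87 ± 0.686 points (SE, adjusted p = 0.002) in limma. In EPDC 2 of the 22, at Myc and Irs2, were higher and 2, at Nras and Cdc25a, lower than at E11.5 (12.7% and 28.0% of all regions). Against E17.5, 4 were higher, at Myc, Ccnd2, Cdk6 and Thbs1, and 2 lower, at Igf1r and E2f6 (24.3% and 20% of all regions).

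Motifs were searched as exact letters on both strands of each whole region and are given as descriptions. TGANTCA of AP-1 was in 22.8% of all regions and in 7 of the 17 member regions that rose to E17.5 and 6 of the 51 that fell, 41.2% and 11.8%. TTGGCA of NFI was in 28.5% of all regions and in 9 of the 17 that rose and 17 of the 51 that fell. AGATAA of GATA factors was in 29.8% of all regions, in 3 of the 17 that rose and 10 of the 51 that fell, and in 18.6% of the 237 member regions. GGAATG of TEAD was in 33.1% of all regions, in 5 of the 17 that rose and 17 of the 51 that fell, and ACAAAG of SOX factors in 33.8% of all, 7 of the 17 and 16 of the 51. AGGTGTGA of T-box factors was in 1.97% of all regions, in 1 that rose and none that fell, and GCGTGGG of WT1 and EGR factors in 4.86% of all, 1 that rose and 3 that fell. None of these motifs contains another, although neighbouring matches can overlap.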

How the data were processed

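ATAC-seq of the 10 samples had been processed by the authors, per the methods, with the nf-core atacseq pipeline on mm10, with duplicate, multimapped, blacklisted and mitochondrial reads removed and peaks called per list with MACS2 2.2.9.1 on fragment pairs, every summit kept. The deposited lists give each summit a fold enrichment over local background, a −log10 p-value and a −log10 q-value, none normalized between lists. Whole fragments are piled up, so a peak spans the DNA between paired cuts. No read counts were used, and the authors' window test by edgeR was not repeated.

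Summits were merged into 501-bp consensus regions, and each region took the rank percentile of its strongest −log10 p in each list, or 0. Percentiles were compared with limma 3.58.1 (R 4.3.3, eBayes with trend) over 130905 regions called in at least 3 of 9 lists, with Benjamini-Hochberg adjustment over all of them, after tests on simulated data. Groups and replicate numbers came from the labels. Fragments at a summit were solved from fold and −log10 p together, which succeeded for 91.05% to 99.3% of sampled summits. Genes came from GENCODE M21, sequences from GRCm38.p6. With 3 lists a group, exact permutation of single values cannot go below p = 0.1, so only the fit across all regions was used.

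The 8 genes, the lists of other genes and the motifs were chosen with earlier results of these data known. A further gene of these lists is not reported here. Regions named are each gene's promoter regions, its region of highest mean percentile, and up to 8 per comparison and direction with the largest difference at an adjusted p below 0.05, along with 23 further regions of the 8 genes chosen after their values were seen. Alternatives were a rank by fold enrichment, log2 of the depth-scaled score with a pseudocount of 1, equal numbers of top summits, a −log10 q of at least 5, called intervals overlapping by 1 bp, no filter, no trend, the compared groups alone, a replicate block and each list left out.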

Additional observations from a re-analysis of the deposited data

How the results depend on the processing

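At the 81 regions described, 23 of them chosen after their values were seen, 80 differences passed the threshold at regions that more than 1 group brought into the fit, and over 1385 settings 1222 kept direction and call, 156 lost the call and 7 reversed. The number of member regions higher at E17.5 than at E11.5 went from 17 to 31 with the log2 of the depth-scaled score and 29 with equal numbers of top summits, and the number lower from 51 to 25 with the latter. Regions higher in EPDC than at E11.5 went from 11 to 22 by fold enrichment and 19 with the log2 of the depth-scaled score, and those lower from 51 to 31 with equal numbers. With 1 list left out, the counts ran from 15 to 24 higher and 38 to 52 lower for E17.5 against E11.5, from 8 to 18 and 38 to 60 for EPDC against E11.5, with the 18 reached without the E12.5 sample, and from 27 to 36 and 27 to 39 for EPDC against E17.5. The cause was not tested.

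Same-numbered epicardial lists deviated from their group means with correlations of 0.0299, 0.0557 and −0.0326 across regions, so the numbers do not pair them. With a replicate block, 12 regions rose and 38 fell. EPDC labels share too few numbers with the epicardium for a block.

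Differences that turned, in points and mostly from uncalled values, were by fold enrichment Lin28a at 17.9 kb (EPDC above E17.5 by 2.39), Lin28b at 151 kb (E17.5 above E11.5 by 3.91), Hmga2 at 54.3 kb (by 8.48), Hmga1 at 9.27 kb (EPDC above E11.5 by 10.1) and Igf2bp1 at 12.3 kb before the start (by 3.85), and by log2 score Igf2bp2 at 154 kb (E17.5 above E11.5 by 0.201). With called intervals, Lin28a at 6.81 kb went to 5.58 for E17.5 against E11.5, Hmga1 at 0.066 kb went to −7.56 for E17.5 against E11.5 and 3.24 for EPDC against E17.5, and at 0.948 kb to −7.56, −4.33 for EPDC against E11.5 and 3.24, as 1 interval holds all its promoter summits. Igf2bp3 at 118.4 kb went to 1.36 and 48.5 kb before the start to 0.348 (EPDC against E11.5), and Arid3a at 0.684 kb to −5.65 (EPDC against E17.5).

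Depth limits the lists unevenly. A summit needed 2.2 times the genome background in EPDC E13.5 sample 2 and 4.35 times in E17.5 replicate 1, and these cutoffs differ for weak regions. The lists hold no reads, and p-values measure the spread between 3 pooled samples a group. Most windows hold other genes, which regions may serve.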
